A study of Mus musculus with 9 samples.

Results

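Polyamine and arginine metabolism was followed in mouse ear through 10 genes, Arg1, Arg2, Odc1, Azin1, Amd1, Srm, Sms, Sat1, Smox and Paox, out of 54838 genes in the count tables. The genes were chosen by name from the mouse Ensembl identifiers, and the names were put together with the counts of these libraries in view. Their levels and fold changes are therefore given as a description, with no p-value. RNA was read by 3' tag RNA-Seq, in which a transcript is counted near its 3' end, in 9 ear libraries of C57BL/6 mice aged 10 weeks. The groups were Mdl-1-/- mice given IL-23 minicircle DNA, wild-type mice given IL-23 minicircle DNA and wild-type mice given GFP minicircle DNA, with 3 libraries each. A minicircle is a DNA circle without bacterial backbone that the liver expresses after injection. Each mouse received 15 µg by hydrodynamic tail vein injection. All 3 groups therefore carry the injection itself, and Mdl-1-/- mice with GFP DNA were not among them, so a genotype difference present before IL-23 cannot be told apart from one that arises under IL-23. The labels number the libraries of a group 1 to 3 and do not speak of separate animals, so a p-value measures only the spread between these libraries, which may be technical.

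Polyamines (putrescine, spermidine and spermine) are small positively charged molecules that bind nucleic acids and are needed for growth. Arginase splits arginine into urea and ornithine, and ornithine decarboxylase (Odc1) turns ornithine into putrescine. Spermidine synthase (Srm) and spermine synthase (Sms) add aminopropyl groups from the product of S-adenosylmethionine decarboxylase (Amd1). In the reverse direction spermine oxidase (Smox) acts on spermine directly, whereas Sat1 acetylates spermidine and spermine and the peroxisomal oxidase Paox acts on the acetylated forms. In skin, ornithine decarboxylase is best known for its activity in proliferating keratinocytes, and Arg1 for its presence in macrophages and in keratinocytes.

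The libraries held 3776188 to 5605713 counts, and a count of 0 allows up to 0.535 to 0.794 CPM (counts per 1e+06 counts of the library), taking 3 counts as the limit and counting error only. Clec5a, which encodes MDL-1, had 10, 13 and 5 counts in Mdl-1-/- IL-23 ears, 17, 21 and 11 counts in wild-type IL-23 ears and 2, 7 and 10 counts in wild-type GFP ears. Which stretch of Clec5a the deletion removes is not stated, and reads from the 3' end may fall outside it, so these counts do not check the genotype. For the labelled tissue, summed basal keratinocyte markers (7 genes, Krt5 and Krt14 among them) stood at 7871 to 10496 CPM in Mdl-1-/- IL-23 ears, 10661 to 13317 CPM in wild-type IL-23 ears and 9374 to 11662 CPM in wild-type GFP ears. At an edgeR adjusted p under 0.05, 1 of the 7 stood higher in wild-type IL-23 against GFP ears (Krt14, log2 fold change 1.23). Krt15 (-3.53) and Col17a1 (-2.28) stood lower. Between the IL-23 groups, Col17a1 stood higher (1.69) and Krt14 lower (-0.69) in Mdl-1-/- ears. The sum therefore does not stand for each gene. Cartilage (6 genes) was read at a low level, with Matn1 at 0 in every library. Its markers summed to 8.01 to 16.8 CPM in Mdl-1-/- IL-23 ears, 3.97 to 9.40 CPM in wild-type IL-23 ears and 26.8 to 48.9 CPM in wild-type GFP ears. Of 3 tested, 2 (Acan and Col9a1) were called lower in each IL-23 group against GFP ears, and none between the IL-23 groups. The 10 genes together made up 0.0661% to 0.0903% of the counts of a library.

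Promoter windows of Amd1 and Amd2, and of Smox and Sat1, are printed, from RefSeq on GRCm38.p6, each from 100 bases before the gene's start to 30 after it and written along the gene's own strand. The table of promoters matched Smox, Odc1, Sms, Sat1, Paox and Amd1, which is 6 of the 10 genes. The Amd1 window lies at chr10:40302159-40302288 on the minus strand and that of its copy Amd2 at chr10:35711862-35711991 on the minus strand. They are shown because reads of these genes can be exchanged, and the capitals mark the 28 bases that both windows share at the start of the transcript.
Amd1: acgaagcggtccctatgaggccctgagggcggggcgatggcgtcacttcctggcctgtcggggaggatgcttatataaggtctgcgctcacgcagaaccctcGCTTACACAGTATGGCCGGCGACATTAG
Amd2: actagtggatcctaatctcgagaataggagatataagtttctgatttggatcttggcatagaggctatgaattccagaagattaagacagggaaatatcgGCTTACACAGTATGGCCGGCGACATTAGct
Upstream of the shared run, 26 of 100 bases were identical when set side by side without gaps.

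Smox and Sat1 both act on spermine, and their mean levels stood on opposite sides of their GFP means in wild-type ears given IL-23. For Sat1 the libraries of these groups overlapped. The start regions of both genes are set beside each other. The Smox window lies at chr2:131491762-131491891 on the plus strand and the Sat1 window at chrX:155216420-155216549 on the minus strand, with each CG step in capitals.
Smox: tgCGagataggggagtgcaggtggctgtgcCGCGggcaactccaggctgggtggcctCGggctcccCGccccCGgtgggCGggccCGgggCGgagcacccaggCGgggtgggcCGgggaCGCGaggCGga
Sat1: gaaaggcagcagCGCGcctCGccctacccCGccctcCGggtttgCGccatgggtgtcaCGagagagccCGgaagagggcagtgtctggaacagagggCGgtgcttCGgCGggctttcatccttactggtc
The 130 bases held 14 CG steps at 79.2% G and C for Smox and 11 CG steps at 66.2% G and C for Sat1. Over the full window of 300 bases the genes with an entry held 12 to 42 CG steps, against a median of 7 over all 32851 windows of that length. In these windows both strands were searched for CACGTG (E-box, in 7.15% of all windows), TTCNNNGAA (STAT, 8.30%), TGANTCA (AP-1, 7.81%) and TATAAA (the TATA box, 13.6%). The only match in the windows of the 6 genes with an entry was CACGTG, 196 bases before one of the annotated starts of Sms. A match is a string of letters and not a measured site, and the others are simply not in these windows in those letters.

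Wild-type ears given IL-23 differed from wild-type GFP ears at several steps of the pathway. Arg1 at its entry and the oxidases Smox and Paox at its exit stood higher, as did Azin1 and Srm, while Odc1, Amd1 and Sms in the middle stood near their GFP level and Sat1 stood lower. Of the 10 genes, 9 had enough counts to be tested, and 6 of these were called (edgeR quasi-likelihood test, Benjamini-Hochberg adjusted p under 0.05 over all genes tested), 5 higher and 1 lower. Of all 13807 genes tested, 44.7% were called in this comparison, 22.9% higher and 21.7% lower. Mdl-1-/- IL-23 ears against wild-type IL-23 ears also gave 6 called genes of 9, 2 higher and 4 lower, where 17.7% of all genes tested were called, 7.58% higher and 10.1% lower. In Mdl-1-/- IL-23 ears against wild-type GFP ears 2 of 9 were called, both higher, where 17.1% of all were called, 10.2% higher and 6.93% lower. These calls use the contrasts on which the genes were put together, so the shares are set side by side and nothing is read from them. The median log2 fold change of the 9 genes was 1.05, -0.76 and 0.32 in these 3 comparisons, against -0.04, 0.00 and -0.02 over all genes tested.

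**Figure D1:**
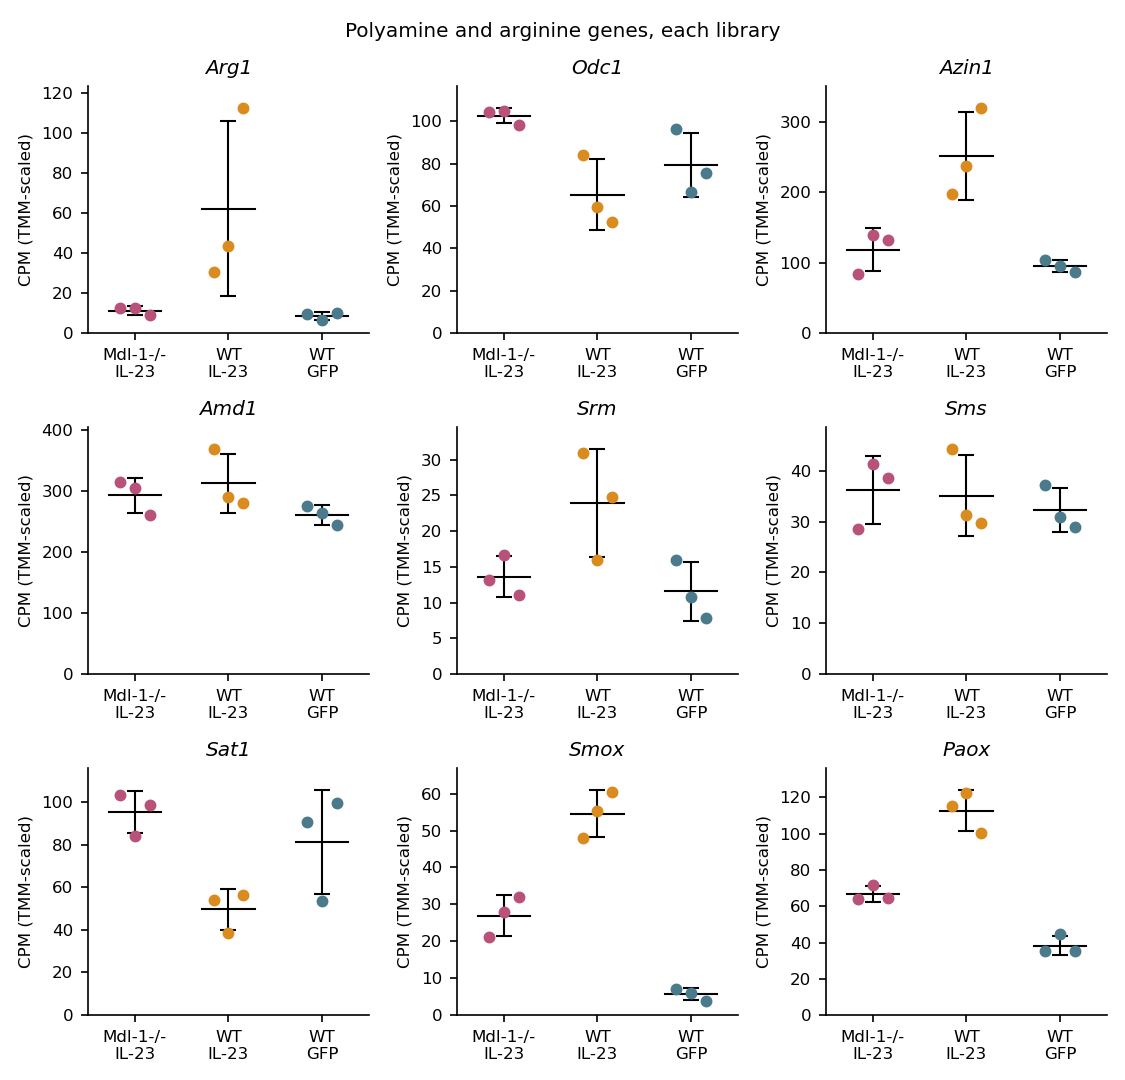
TMM-scaled CPM (y axis, from 0) of the 9 tested genes in Mdl-1-/- IL-23, WT IL-23 and WT GFP ears. Points are libraries, and bars are the mean and SD of 3. Smox and Paox separate all 3 groups, Arg1 and Azin1 stand apart in WT IL-23, and Sms overlaps throughout.

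Arg1 (chr10:24915221-24927484, minus strand, GRCm38), the cytosolic arginase, had 12.3, 12.6 and 8.87 CPM in Mdl-1-/- IL-23 ears, 30.7, 43.6 and 112 CPM in wild-type IL-23 ears and 9.75, 6.43 and 10.1 CPM in wild-type GFP ears. All wild-type IL-23 libraries lay above all others, library 3 of that group lay far above the others, and the Mdl-1-/- IL-23 and wild-type GFP libraries overlapped. The mean was 62.2 ± 43.9 CPM in wild-type IL-23 ears, the widest relative spread of any group among the 9 tested genes of the 10, at 70.6%. Its log2 fold change was 2.80 (SE 0.49, or 6.97-fold) in wild-type IL-23 against GFP ears and -2.44 (SE 0.48, or 5.43-fold lower) in Mdl-1-/- against wild-type ears under IL-23. Without wild-type IL-23 library 3 these log2 values were 2.09 and -1.71, and without Mdl-1-/- library 1 the genotype difference was -2.51 but no longer called. Against wild-type GFP ears, Mdl-1-/- IL-23 ears gave 0.36 (SE 0.52). In bulk ear RNA, fewer cells of a type and less RNA per cell cannot be told apart.

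Markers of cells that may carry Arg1 were read in the same libraries. Summed monocyte and macrophage markers (16 genes, 14 tested) stood at 387 to 437 CPM in Mdl-1-/- IL-23 ears, 322 to 430 CPM in wild-type IL-23 ears and 140 to 225 CPM in wild-type GFP ears. The Mdl-1-/- and wild-type IL-23 libraries overlapped in this sum, and library 3 was the highest of the wild-type IL-23 group in it, at 430 CPM against 322 and 347 CPM. The part of these cells in the Arg1 values was not tested. Of the 14, 4 were called higher (Csf1r and Itgam among them) and 1 lower (Cd163) in wild-type IL-23 against GFP ears, and only Cd163 was called, higher, in Mdl-1-/- against wild-type ears under IL-23. Adgre1, which defines macrophages, had 1 to 13 counts in every library.

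The stressed epidermis markers (10 genes, among them Krt6a, Krt16 and Sprr2d) summed to 2958 to 7350 CPM in Mdl-1-/- IL-23 ears, 16717 to 31858 CPM in wild-type IL-23 ears and 193 to 371 CPM in wild-type GFP ears. All 10 were called higher in wild-type IL-23 against GFP ears, and 8 were called lower in Mdl-1-/- against wild-type ears under IL-23. The neutrophil list (14 genes, 10 tested) summed to 6782 to 26035 CPM in Mdl-1-/- IL-23 ears, 35072 to 74440 CPM in wild-type IL-23 ears and 332 to 465 CPM in wild-type GFP ears. Nearly all of that sum came from S100a8 and S100a9, which keratinocytes also express, and Ly6g, which defines neutrophils, had 7 counts at most. Of these lists, 9 neutrophil genes were called higher in wild-type IL-23 against GFP ears and 4 lower in Mdl-1-/- against wild-type ears under IL-23. Wild-type IL-23 library 3, the highest in Arg1, was also the highest in both sums. Their part in the Arg1 values was not tested.

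Arg2 (chr12:79130777-79156301, plus strand), the mitochondrial arginase, was hardly read. It had 1, 0 and 4 counts in Mdl-1-/- IL-23 ears, 1, 0 and 2 counts in wild-type IL-23 ears and 0 in each wild-type GFP library. It was left out by the filter on low counts, its annotated span overlaps other genes, and a difference was not detectable at this depth.

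Odc1 (chr12:17544794-17551505, plus strand), the step that commits ornithine to polyamines, had 104, 105 and 98.5 CPM in Mdl-1-/- IL-23 ears, 84.1, 59.6 and 52.2 CPM in wild-type IL-23 ears and 96.2, 66.7 and 75.8 CPM in wild-type GFP ears. In TMM-scaled CPM the Mdl-1-/- libraries lay close together and above all others, and the wild-type groups overlapped. Counts over library totals, without TMM factors, overlapped between the Mdl-1-/- IL-23 and wild-type GFP groups. Mean levels were 103 ± 3.55 CPM in Mdl-1-/- IL-23 ears, 65.3 ± 16.7 CPM in wild-type IL-23 ears and 79.6 ± 15.1 CPM in wild-type GFP ears (SD, n = 3 each). Odc1 was called only between the IL-23 groups, at a log2 fold change of 0.65 (SE 0.18, or 1.57-fold higher in Mdl-1-/-). Odc1 was no longer called when Mdl-1-/- library 1 was left out (0.63), nor when wild-type IL-23 library 2 (0.59) or 3 (0.52) was. In wild-type IL-23 against GFP ears the value was -0.28 (SE 0.18), and it was called at -0.50 when wild-type IL-23 library 1 was left out.

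Azin1 (chr15:38487427-38519266, minus strand) encodes antizyme inhibitor, a protein related to ornithine decarboxylase that lacks its activity and binds antizyme, which otherwise marks ornithine decarboxylase for degradation. It had 83.2, 139 and 132 CPM in Mdl-1-/- IL-23 ears, 197, 238 and 319 CPM in wild-type IL-23 ears and 103, 95.1 and 86.2 CPM in wild-type GFP ears. The wild-type IL-23 libraries lay above all others, and the other groups overlapped. The log2 fold change was 1.40 (SE 0.20, or 2.64-fold) in wild-type IL-23 against GFP ears, -1.09 (SE 0.20, or 2.12-fold lower) in Mdl-1-/- against wild-type ears under IL-23 and 0.32 (SE 0.20) in Mdl-1-/- IL-23 ears against GFP ears. Azin1 and Odc1 therefore took different courses across the groups. Within a library, where scaling cancels, Azin1 counts per Odc1 count were 0.798, 1.33 and 1.34 in Mdl-1-/- IL-23 ears, 2.35, 3.99 and 6.10 in wild-type IL-23 ears and 1.07, 1.43 and 1.14 in wild-type GFP ears. These ratios, like the others below, were chosen after the values were seen and compare groups, not the abundance of one gene with another.

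**Figure D2:**
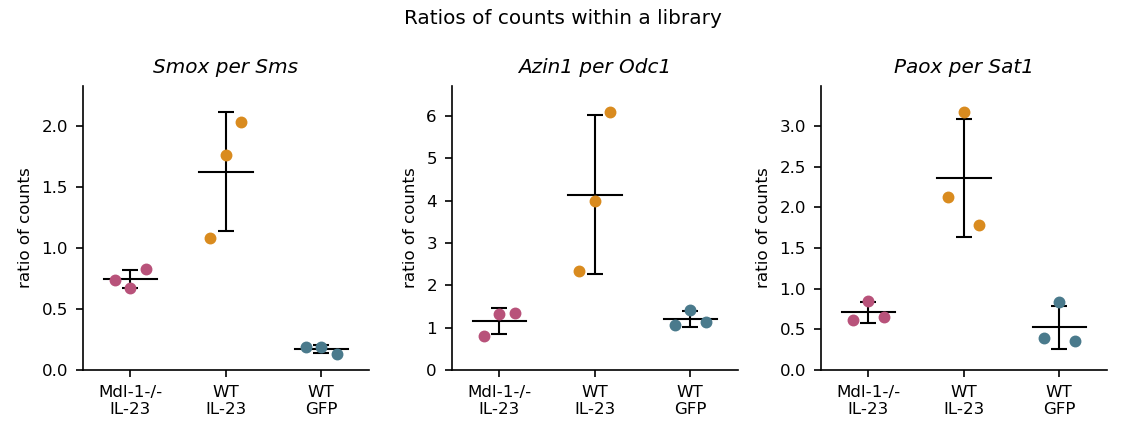
Ratio of counts within a library (y axis, from 0) for Smox per Sms, Azin1 per Odc1 and Paox per Sat1 in Mdl-1-/- IL-23, WT IL-23 and WT GFP ears. Points are libraries, and bars are the mean and SD of 3. Each ratio is highest in WT IL-23, and Smox per Sms separates all 3 groups.

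Amd1 (chr10:40287458-40302186, minus strand), which decarboxylates S-adenosylmethionine to the aminopropyl donor, had 315, 305 and 260 CPM in Mdl-1-/- IL-23 ears, 368, 290 and 280 CPM in wild-type IL-23 ears and 275, 264 and 244 CPM in wild-type GFP ears. In TMM-scaled CPM the wild-type IL-23 libraries all lay above the wild-type GFP libraries, by a small margin, and the Mdl-1-/- libraries overlapped both. Counts over library totals, without TMM factors, overlapped between the wild-type groups. The log2 fold changes were 0.26 (SE 0.14), -0.09 (SE 0.14) and 0.17 (SE 0.14) in the order of comparisons above, and none was called. The level is uncertain because of the copy whose start is printed above. Of the 902 stretches of 50 bases in the last 500 bases of the Amd1 transcripts, 99.3% also occur in Amd2 and 44.5% in the pseudogene Amd-ps3. Amd2 counts were 0.883 to 1.001 of the Amd1 counts in the 9 libraries, and Amd-ps3 counts were 0.399 to 0.510 of them. Amd1 and Amd2 summed gave log2 fold changes of 0.30, -0.14 and 0.16.

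**Figure D3:**
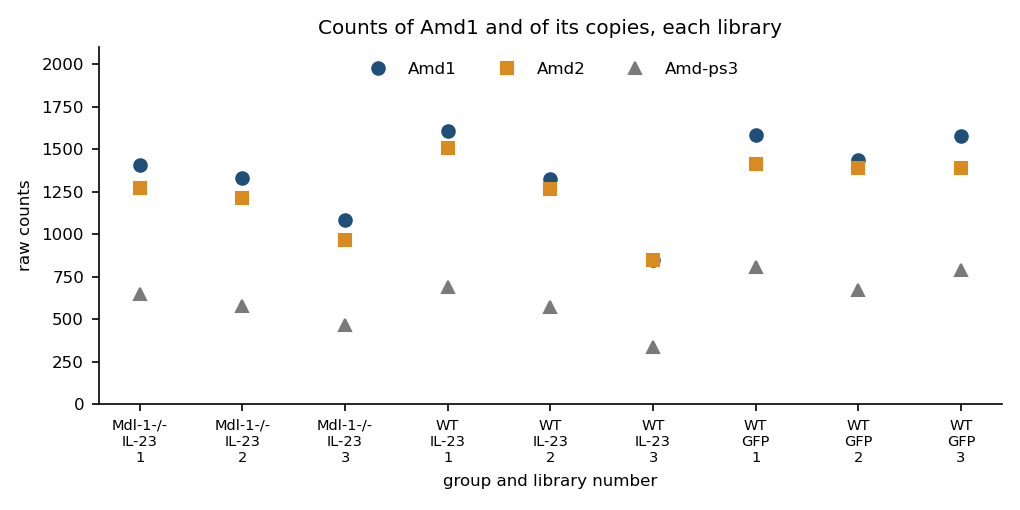
Raw counts (y axis, from 0) of Amd1, Amd2 and Amd-ps3 in each library of the Mdl-1-/- IL-23, WT IL-23 and WT GFP groups. Amd2 lies on or just below Amd1 in nearly every library, and Amd-ps3 follows at 0.399 to 0.510 of the Amd1 count.

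Srm (chr4:148591503-148594993, plus strand), which makes spermidine from putrescine, had 13.2, 16.7 and 11.02 CPM in Mdl-1-/- IL-23 ears, 30.9, 15.98 and 24.8 CPM in wild-type IL-23 ears and 16.01, 10.8 and 7.89 CPM in wild-type GFP ears. Library 2 of the wild-type IL-23 group fell among the other groups, and the remaining libraries of that group lay above them. The log2 fold change was 1.05 (SE 0.28, or 2.06-fold) in wild-type IL-23 against GFP ears. In Mdl-1-/- against wild-type ears under IL-23 it was -0.80 (SE 0.29), which was not called, and was called without wild-type IL-23 library 2 (-1.02), with no filter on counts (-0.80), with only these groups fitted (-0.76) and with the library number as a block (-0.77).

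Sms (chrX:157443855-157492287, minus strand), which makes spermine from spermidine, had 28.6, 41.4 and 38.6 CPM in Mdl-1-/- IL-23 ears, 44.2, 31.3 and 29.8 CPM in wild-type IL-23 ears and 37.2, 30.9 and 28.9 CPM in wild-type GFP ears. The groups overlapped in every comparison. Its log2 fold changes were 0.12 (SE 0.19), 0.04 (SE 0.20) and 0.16 (SE 0.19), with the first at -0.03 under upper-quartile scaling and -0.07 without wild-type IL-23 library 1, so no direction is given. Sms also shares 26.6% of its end sequence with the pseudogene Sms-ps.

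Smox (chr2:131491496-131525922, plus strand), which oxidises spermine to spermidine with release of hydrogen peroxide and an aldehyde, showed the largest fold change among the 9 tested genes of the 10. It had 21.0, 27.9 and 31.9 CPM in Mdl-1-/- IL-23 ears, 47.9, 55.2 and 60.5 CPM in wild-type IL-23 ears and 7.13, 5.88 and 3.87 CPM in wild-type GFP ears. No library of one group overlapped another group. Means were 26.9 ± 5.49 CPM in Mdl-1-/- IL-23 ears, 54.5 ± 6.33 CPM in wild-type IL-23 ears and 5.63 ± 1.65 CPM in wild-type GFP ears (SD, n = 3 each). The log2 fold change was 3.28 (SE 0.23, or 9.70-fold) in wild-type IL-23 against GFP ears, -1.02 (SE 0.20, or 2.02-fold lower) in Mdl-1-/- against wild-type ears under IL-23 and 2.26 (SE 0.23, or 4.80-fold) in Mdl-1-/- IL-23 ears against GFP ears. Over 17 other settings the first ran from 3.06 to 3.50 and the second from -1.14 to -0.86, each called throughout. Smox counts per Sms count, the oxidase over the synthase of spermine, averaged 0.745 ± 0.0766 in Mdl-1-/- IL-23 ears, 1.63 ± 0.490 in wild-type IL-23 ears and 0.172 ± 0.0331 in wild-type GFP ears.

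Sat1 (chrX:155213132-155216449, minus strand), the spermidine and spermine acetyltransferase, was the called gene that stood lower in wild-type ears given IL-23. It had 103, 84.2 and 99.0 CPM in Mdl-1-/- IL-23 ears, 54.1, 38.5 and 56.2 CPM in wild-type IL-23 ears and 90.7, 53.6 and 99.5 CPM in wild-type GFP ears. All Mdl-1-/- libraries lay above all wild-type IL-23 libraries, and the wild-type groups overlapped through GFP library 2. The log2 fold change was -0.72 (SE 0.21, or 1.65-fold lower) in wild-type IL-23 against GFP ears, and it was no longer called with wild-type IL-23 library 2 (-0.56) or GFP library 3 (-0.54) left out. In Mdl-1-/- against wild-type ears under IL-23 it was 0.95 (SE 0.21, or 1.93-fold higher), called under all 17 other settings, and in Mdl-1-/- IL-23 ears against GFP ears it was 0.23 (SE 0.21). Sat1 activity is also set by polyamine-dependent translation and protein turnover, which RNA counts do not measure.

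Paox (chr7:140115799-140137224, plus strand), which oxidises the products of Sat1, had 64.2, 71.8 and 64.5 CPM in Mdl-1-/- IL-23 ears, 115, 122 and 101 CPM in wild-type IL-23 ears and 35.2, 44.6 and 35.3 CPM in wild-type GFP ears. As for Smox, no library of one group overlapped another group, with Mdl-1-/- IL-23 ears between the wild-type groups. The log2 fold change was 1.56 (SE 0.15, or 2.94-fold) in wild-type IL-23 against GFP ears, -0.76 (SE 0.15, or 1.69-fold lower) in Mdl-1-/- against wild-type ears under IL-23 and 0.80 (SE 0.15, or 1.74-fold) in Mdl-1-/- IL-23 ears against GFP ears. The mean levels of the enzyme and of the acetyltransferase that feeds it thus stood on opposite sides of their GFP means in wild-type IL-23 ears. For Sat1 the libraries of these groups overlapped. Paox counts per Sat1 count were 0.621, 0.853 and 0.651 in Mdl-1-/- IL-23 ears, 2.13, 3.18 and 1.79 in wild-type IL-23 ears and 0.388, 0.832 and 0.355 in wild-type GFP ears. The annotated span of Paox overlaps Echs1 on the other strand and 44.1% of its end sequence occurs in Gm19680, which had 52 counts in all.

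**Figure D4:**
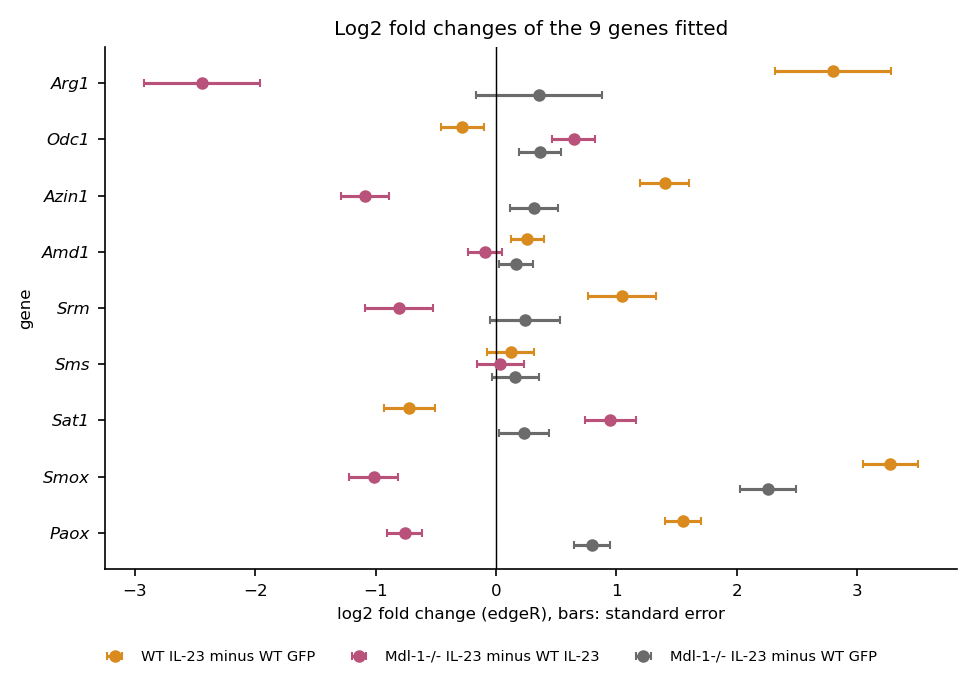
Log2 fold changes (x axis) with standard errors of the 9 tested genes (y axis) for WT IL-23 minus WT GFP, Mdl-1-/- IL-23 minus WT IL-23 and Mdl-1-/- IL-23 minus WT GFP, from the edgeR model of all 9 libraries. Smox, Arg1, Paox, Azin1, Srm and Amd1 lie right of 0 in the first comparison and left of it in the second. Sat1 and Odc1 do the reverse. Amd1 was not called in either, Srm not in the second and Odc1 not in the first.

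By overlap of the libraries in TMM-scaled CPM, 5 of the 9 genes (Smox, Arg1, Paox, Azin1 and Amd1) lay wholly above in wild-type IL-23 against GFP ears. In that comparison the groups of 54.6% of all genes tested did not overlap in either direction. In Mdl-1-/- against wild-type ears under IL-23, 4 genes (Smox, Arg1, Paox and Azin1) lay wholly below and 2 (Odc1 and Sat1) wholly above, against 36.5% of all genes. In Mdl-1-/- IL-23 ears against GFP ears, 3 genes (Smox, Odc1 and Paox) lay wholly above, against 35.8% of all genes. Any pair of these comparisons shares the libraries of 1 group. The TMM factors were 0.94 to 1.01 in Mdl-1-/- IL-23, 0.80 to 0.93 in wild-type IL-23 and 1.15 to 1.18 in wild-type GFP libraries. Without these factors, counts over library totals overlapped for Amd1 in the first of these comparisons and for Odc1 in the last. Their separation there thus rests on the scaling.

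Proliferation markers (12 genes, all tested) summed to 708 to 1007 CPM in Mdl-1-/- IL-23 ears, 1298 to 1560 CPM in wild-type IL-23 ears and 637 to 757 CPM in wild-type GFP ears, with 8 called higher in wild-type IL-23 against GFP ears and 6 called lower in Mdl-1-/- against wild-type ears under IL-23. Among 8195 genes with a mean of at least 10 CPM, those whose centred log2 CPM over the 9 libraries differed least from Srm were Ccnb2, Tpx2 and 4930526A20Rik, at a root mean square difference of 0.210, 0.216 and 0.240. For Azin1 they were Nup35 (0.116), Ccna2 (0.139) and Atp5k (0.161). For Smox they were Rab31 (0.244), Ier5 (0.273) and Slc37a2 (0.280), and for Paox Rps6kb2 (0.0950), Sec14l2 (0.102) and Atp6v0c (0.115). For Odc1 they were Impdh2 (0.0807), Rraga (0.126) and Yrdc (0.130), and for Sat1 Gm14567 (0.0972), Rb1 (0.124) and Ndufb1-ps (0.133). For Sms, whose groups overlapped, they were Prc1 (0.0908), Cox5b (0.112) and Pola1 (0.113). Arg1 had no neighbour as near, with Aldh5a1 (0.483), Lilr4b (0.485) and Defb1 (0.491), and Amd1 had its copy Amd2 (0.0595), Ptma (0.0723) and Erc1 (0.0758). These genes are named by closeness of their levels alone.

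The rest of the pathway was read from 50 further genes in 5 lists. They were chosen for their place in the pathway, with earlier results of these data known. Of the 50, 35 could be tested. Of these, 9 rose and 4 fell in wild-type IL-23 against GFP ears, 1 rose and 6 fell in Mdl-1-/- against wild-type ears under IL-23, and 5 rose and 1 fell in Mdl-1-/- IL-23 ears against GFP ears. Here and below, a gene counted as risen or fallen is one called higher or lower. Called genes thus made up 37.1%, 20% and 17.1% of the 35 in these comparisons, where 44.7%, 17.7% and 17.1% of all genes tested were called, and nothing about the lists as a whole is read from their counts. Adjusted p-values below are from edgeR's quasi-likelihood test with Benjamini-Hochberg adjustment over 13807 genes. As the lists were chosen with earlier results known, these p-values describe the libraries and are no independent test. The median log2 fold change of the 35 genes was -0.02, -0.02 and 0.00 in these comparisons, against -0.04, 0.00 and -0.02 over all genes tested.

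Among 9 tested carriers of polyamines and amino acids, 2 rose and 2 fell in wild-type IL-23 against GFP ears. Atp13a4, of the P-type ATPase family that includes lysosomal polyamine exporters, averaged 8.58 ± 2.69 CPM in Mdl-1-/- IL-23 ears, 17.1 ± 3.35 CPM in wild-type IL-23 ears and 1.74 ± 0.652 CPM in wild-type GFP ears (SD, n = 3 each). Its log2 fold change was 3.29 (SE 0.34, edgeR adjusted p = 3.42e-06) in wild-type IL-23 against GFP ears, -0.98 (SE 0.29, edgeR adjusted p = 0.0276) in Mdl-1-/- against wild-type ears under IL-23 and 2.31 (SE 0.36, edgeR adjusted p = 0.000434) in Mdl-1-/- IL-23 ears against GFP ears. The order of the groups was that of Smox, with no overlap between them. The genotype call was lost when Mdl-1-/- library 1 (-0.75), wild-type IL-23 library 2 (-0.94) or wild-type IL-23 library 3 (-0.85) was left out. The arginine importers differed from each other. Slc7a1 rose by 0.65 (SE 0.20, edgeR adjusted p = 0.0146) in wild-type IL-23 against GFP ears, and by 0.65 (edgeR adjusted p = 0.0329) in Mdl-1-/- IL-23 ears against GFP ears. The first of these Slc7a1 values was no longer called at 0.41 without wild-type IL-23 library 1, 0.58 without GFP library 3 or 0.49 under upper-quartile scaling, nor the second at 0.55 to 0.59 without Mdl-1-/- library 2, without GFP library 2 or 3 or under upper-quartile scaling. Slc7a2 averaged 4.07 ± 1.61 CPM in wild-type IL-23 ears and 10.1 ± 2.87 CPM in wild-type GFP ears, a log2 fold change of -1.28 (SE 0.35, edgeR adjusted p = 0.00735). The exchanger Slc7a6 stood at -0.77 (SE 0.17, edgeR adjusted p = 0.00156) in that comparison. It was the only gene of the 35 called higher in Mdl-1-/- against wild-type ears under IL-23, at 0.58 (SE 0.17, edgeR adjusted p = 0.0266). That call of Slc7a6 was lost, at 0.50 to 0.60, without Mdl-1-/- library 1 or 3 or without wild-type IL-23 library 1 or 3.

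Of 11 genes for arginine synthesis, nitric oxide and creatine, 5 could be tested, and 2 rose and 1 fell in wild-type IL-23 against GFP ears. Ass1, which starts the resynthesis of arginine from citrulline, averaged 6.47 ± 2.74 CPM in Mdl-1-/- IL-23 ears, 12.4 ± 2.19 CPM in wild-type IL-23 ears and 5.20 ± 0.798 CPM in wild-type GFP ears. Its log2 fold change was 1.27 (SE 0.31, edgeR adjusted p = 0.00330) in wild-type IL-23 against GFP ears and -0.94 (SE 0.31, edgeR adjusted p = 0.0440) in Mdl-1-/- against wild-type ears under IL-23. The genotype call of Ass1 held only without Mdl-1-/- library 2 or GFP library 2 among the sets with 1 library left out, and the other 7 sets gave -1.07 to -0.62. Upper-quartile scaling (-0.89) and a fit of only the IL-23 groups (-0.90) also lost it. Ddah1 breaks down methylated arginines that inhibit nitric oxide synthases. It averaged 4.54 ± 1.53 CPM in Mdl-1-/- IL-23 ears, 10.2 ± 1.80 CPM in wild-type IL-23 ears and 1.08 ± 0.570 CPM in wild-type GFP ears, with log2 fold changes of 3.20 (SE 0.40, edgeR adjusted p = 1.58e-05), -1.16 (SE 0.34, edgeR adjusted p = 0.0287) and 2.05 (SE 0.43, edgeR adjusted p = 0.00389) in the 3 comparisons. The genotype call of Ddah1 was lost, at -1.27 to -0.95, without Mdl-1-/- library 1 or 3 or without any 1 of the wild-type IL-23 libraries. Nos2, the inducible nitric oxide synthase that competes with arginase for arginine, had 0 counts in all 9 libraries, and Nos1 and Nos3 were too low to test. Gatm, the first enzyme of creatine synthesis, had 11, 5 and 28 counts in Mdl-1-/- IL-23 ears, 2, 1 and 3 counts in wild-type IL-23 ears and 67, 12 and 51 counts in wild-type GFP ears. Its log2 fold change was -3.77 (SE 0.88, edgeR adjusted p = 0.00490) in wild-type IL-23 against GFP ears. Between the IL-23 groups Gatm stood at 2.69 (edgeR adjusted p = 0.0786), and DESeq2 called it at 2.71 (adjusted p = 0.0125), as did edgeR with a block for library number (2.58), with no filter on counts (2.69) and without Mdl-1-/- library 2 (3.11), GFP library 1 (2.69) or GFP library 2 (2.695). Skeletal muscle markers (12 genes, 11 tested, 3 called lower) summed to 306 to 1279 CPM in Mdl-1-/- IL-23 ears, 625 to 779 CPM in wild-type IL-23 ears and 1049 to 1997 CPM in wild-type GFP ears. Adipocyte markers (8 genes, 7 tested, all 7 called lower) summed to 73.6 to 137 CPM in Mdl-1-/- IL-23 ears, 72.4 to 123 CPM in wild-type IL-23 ears and 285 to 626 CPM in wild-type GFP ears. Their part in the Gatm values was not tested.

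Spermidine also donates the side chain that turns a lysine of the translation factor eIF5A into hypusine. In the list that holds this step (8 tested), 2 genes rose and 1 fell in wild-type IL-23 against GFP ears and none was called between the IL-23 groups. Eif5a rose by 0.71 (SE 0.14, edgeR adjusted p = 0.000866) in wild-type IL-23 ears and by 0.60 (SE 0.14, edgeR adjusted p = 0.00876) in Mdl-1-/- IL-23 ears, both against wild-type GFP ears. Dohh, the hydroxylase that completes hypusine, rose by 1.22 (SE 0.24, edgeR adjusted p = 0.000794) and by 0.74 (SE 0.24, edgeR adjusted p = 0.0470) in these comparisons. The second call of Dohh was lost under most settings, among them without Mdl-1-/- library 2 (0.57) and without GFP library 1 (0.53). Dhps, which transfers the side chain, averaged 2.40 ± 1.15 CPM in wild-type IL-23 ears and 5.89 ± 1.85 CPM in wild-type GFP ears, a log2 fold change of -1.25 (SE 0.39, edgeR adjusted p = 0.0150), and was no longer called without wild-type IL-23 library 1 (-1.06), wild-type IL-23 library 3 (-1.07) or GFP library 3 (-0.98). Antizyme itself, Oaz1, which is named for its role and not by the rule, averaged 337 ± 18.1 CPM in Mdl-1-/- IL-23 ears, 282 ± 14.9 CPM in wild-type IL-23 ears and 326 ± 8.95 CPM in wild-type GFP ears. Its log2 fold change was -0.21 (edgeR adjusted p = 0.168) in wild-type IL-23 against GFP ears and 0.26 (edgeR adjusted p = 0.148) in Mdl-1-/- against wild-type ears under IL-23. Azin2, the other antizyme inhibitor, stayed low at 3.46 ± 0.222 CPM in Mdl-1-/- IL-23 ears, 3.44 ± 1.01 CPM in wild-type IL-23 ears and 3.51 ± 1.35 CPM in wild-type GFP ears.

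In the list for S-adenosylmethionine supply and salvage of methylthioadenosine, the by-product of spermidine and spermine synthesis, 3 of 8 tested genes rose in wild-type IL-23 against GFP ears and 2 fell in Mdl-1-/- against wild-type ears under IL-23. Ahcy, which removes S-adenosylhomocysteine, averaged 37.7 ± 9.77 CPM in Mdl-1-/- IL-23 ears, 74.0 ± 11.1 CPM in wild-type IL-23 ears and 30.1 ± 2.02 CPM in wild-type GFP ears. Its log2 fold change was 1.29 (SE 0.18, edgeR adjusted p = 4.92e-05) in wild-type IL-23 against GFP ears and -0.97 (SE 0.18, edgeR adjusted p = 0.00327) in Mdl-1-/- against wild-type ears under IL-23. Enoph1, an enzyme of the salvage route, gave 0.83 (SE 0.24, edgeR adjusted p = 0.00997) and -0.78 (SE 0.24, edgeR adjusted p = 0.0357) in these comparisons, and Mat2a, which makes S-adenosylmethionine, gave 0.41 (SE 0.14, edgeR adjusted p = 0.0296) in the first. Enoph1 was no longer called in the first without wild-type IL-23 library 3 (0.57), nor in the second without that library (-0.51), Mdl-1-/- library 1 (-0.72), Mdl-1-/- library 3 (-0.68) or GFP library 3 (-0.76). The second call of Enoph1 was also lost with limma voom (-0.72) and with only the IL-23 groups fitted (-0.74). Mat2a lost its call, at 0.25 to 0.46, under upper-quartile scaling and without wild-type IL-23 library 1 or 3 or GFP library 1 or 3. Of 5 tested genes that lead from ornithine to proline and glutamate, none was called in wild-type IL-23 against GFP ears. Aldh4a1, which yields glutamate in this route, was the 1 gene called in the other comparisons, at -0.63 (SE 0.20, edgeR adjusted p = 0.0423) in Mdl-1-/- against wild-type ears under IL-23 and -0.71 (edgeR adjusted p = 0.0216) in Mdl-1-/- IL-23 ears against GFP ears. The first call of Aldh4a1 was lost, at -0.68 to -0.52, without any 1 of the Mdl-1-/- libraries, without wild-type IL-23 library 2 or 3 or without GFP library 3, and the second, at -0.74 to -0.47, without Mdl-1-/- library 1 or 2 or without GFP library 2 or 3. Upper-quartile scaling (-0.58) and limma voom (-0.63) also lost the first call.

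**Figure D5:**
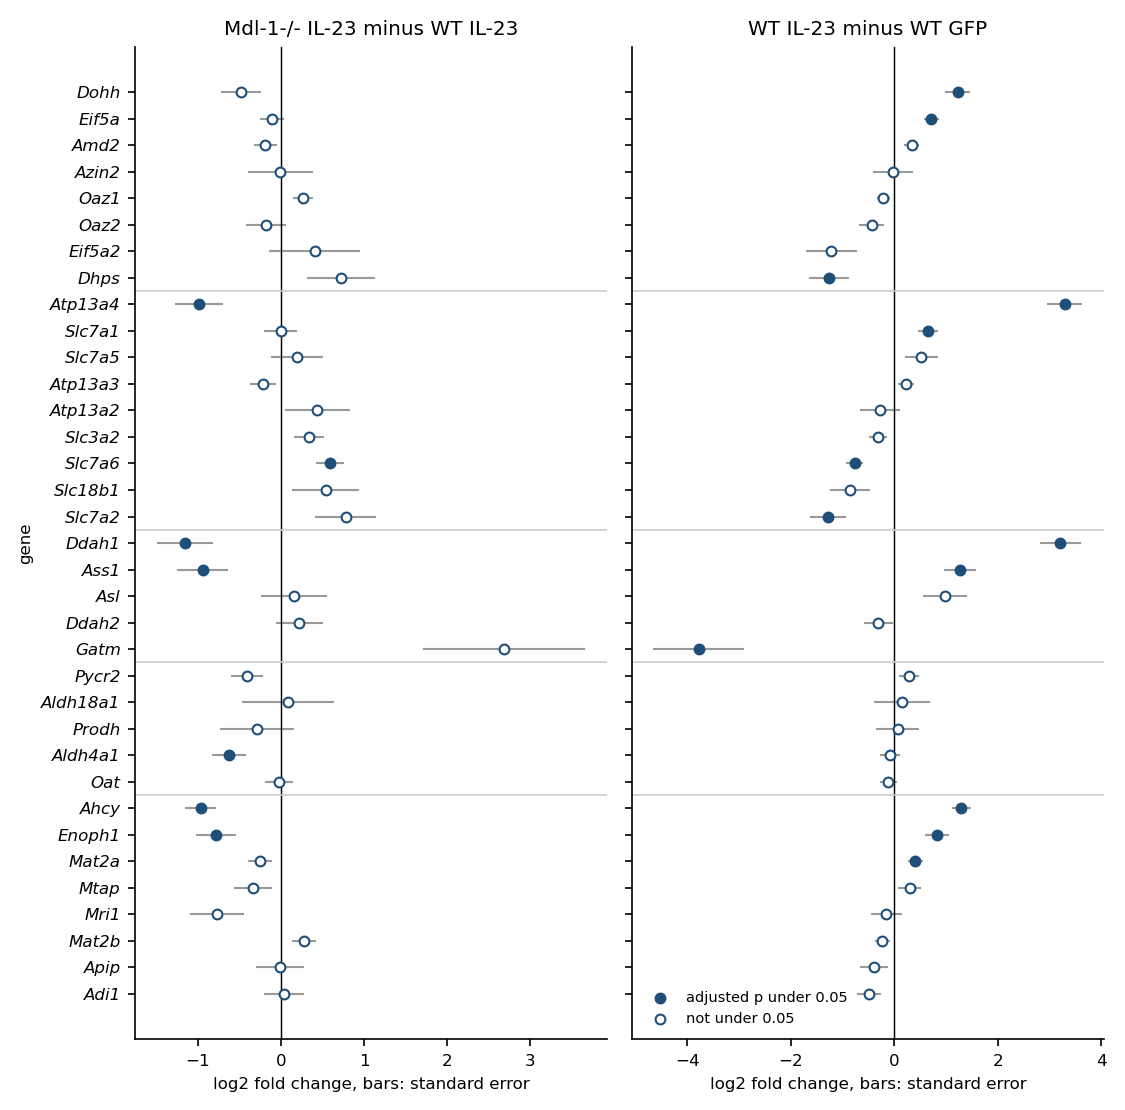
Log2 fold changes (x axis) with standard errors of the 35 tested further pathway genes (y axis), for Mdl-1-/- IL-23 minus WT IL-23 at left and WT IL-23 minus WT GFP at right. Filled points have an edgeR adjusted p under 0.05, and grey lines part the 5 lists. Atp13a4 and Ddah1 lie farthest right and Gatm farthest left in the right panel.

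In the authors' deposited table of edgeR results, 6 of the 10 genes had a false discovery rate under 0.05 in wild-type IL-23 against GFP ears, 6 between the IL-23 groups and 2 in Mdl-1-/- IL-23 ears against GFP ears. How many of all genes passed in that table was not counted, so nothing is read from these counts. The log2 fold change of Smox in the authors' deposited table was 3.29 and that of Arg1 2.81 for wild-type IL-23 against GFP ears. Between the IL-23 groups the authors' deposited table runs as wild-type minus Mdl-1-/-, so Smox stands there at 0.97 and Arg1 at 2.40, opposite in sign to the values above. For Arg2 the authors' deposited table lists 4.07 in Mdl-1-/- IL-23 ears against GFP ears, on 5 counts against 0.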

How the data were processed

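Ear RNA of 9 libraries in 3 groups of 3 was measured by 3' tag RNA-Seq. The deposited tables hold raw counts per Ensembl gene. Per the submitters' processing notes, STAR 2.7.0a, featureCounts and edgeR were used, with GRCh38.p6 as build. This names a human assembly although the identifiers are mouse, so the alignment build is uncertain. Annotation, strand setting and treatment of reads with several matches are not given in the sources used. Further deposited tables give the authors' own comparisons as log2 fold changes, mean log2 CPM, p-values and false discovery rates.

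The 3 count tables were joined (0 values differed where they overlap). Symbols and positions were taken by identifier from GENCODE M21 (GRCm38); 115 genes had no symbol. Genes passing filterByExpr (minimum count 10, minimum total 15), 13807 in all, were fitted with edgeR 4.0.16 in R 4.3.3. The fit used TMM scaling, 3 group means over all 9 libraries and a robust quasi-likelihood test with 6 residual degrees of freedom. The procedure was tested on simulated data, where 65% to 66% of 2-fold and 94% to 97% of 4-fold changes were recovered. There, 100 genes changed at each fold, none of them of low counts, and all other genes were unchanged. In the real libraries 44.7% of genes tested were called in wild-type IL-23 against GFP ears. The simulation therefore cannot show how well scaling or genes of low counts were handled. False calls made up 6.43%, 5.81% and 10.6% of the calls there, in the order of comparisons of the report. A gene was called at a Benjamini-Hochberg adjusted p under 0.05, and standard errors come from the F statistic. Levels are TMM-scaled CPM with SD over n = 3. As strand is not given, reads of a gene and of one that overlaps it cannot be told apart.

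The 10 genes, the further pathway genes and the marker lists were chosen with earlier results of these data known. From each further list the text names up to 4 called genes with the largest fold change in wild-type IL-23 against GFP ears and up to 3 in Mdl-1-/- against wild-type ears under IL-23. Low genes of known role may be named with their counts. Libraries of a group differed by more than sampling noise (chi-square per gene 4.22 or more), so none was taken as a copy. Alternatives were DESeq2 1.42.0, limma 3.58.1 (voom), upper-quartile scaling, other count filters, non-robust dispersions, fits of 2 groups only, a block for library number and leaving out each library. Protein sequences were not used here.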

Additional observations from a re-analysis of the deposited data

How the results depend on the processing

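Over the alternatives run, no result reversed its direction among those called, and the count of the 10 genes called stayed at 2 in Mdl-1-/- IL-23 ears against GFP ears. Leaving out 1 library at a time gave 5 to 7 in wild-type IL-23 against GFP ears and 4 to 6 in Mdl-1-/- against wild-type ears under IL-23, where no filter on counts, a fit of 2 groups only and the replicate block gave 7. Of the further pathway genes, leaving out 1 library gave 10 to 16, 1 to 8 and 3 to 7 called genes in the comparisons in the order of the report. The lowest count between the IL-23 groups, 1, came without Mdl-1-/- library 1 and also without wild-type IL-23 library 3, and 2, 3, 4 and 4 were called without Mdl-1-/- library 3, wild-type IL-23 library 2, wild-type IL-23 library 1 and GFP library 3. In Mdl-1-/- IL-23 ears against GFP ears 3 were called without Mdl-1-/- library 2, and 12 with no filter on counts. For most of these settings the share of all genes called is not given here, so nothing is read from these counts. Between the IL-23 groups, Ahcy was called under every setting run, and the other 6 further genes each lost their call with some library left out. The cause was not tested. Correlations of same-numbered deviations ran from -0.0863 to 0.23, over 0.1 in 2 of 9 pairs. With so few libraries these values cannot settle whether same-numbered libraries share a batch or are paired. With a replicate block 6, 7 and 2 of the 10 genes and 15, 8 and 7 further genes were called. Of all genes tested, 6257, 2800 and 2682 were called with the block, against 6169, 2439 and 2359 without it. Upper-quartile scaling shifted the median log2 fold change of all genes by -0.15, 0.06 and -0.10, and the share of calls that were higher was 38.9%, 53.2% and 43.7% with it, against 51.3%, 42.9% and 59.4% under TMM. Depth limits Arg2, Nos2, Gatm and Clec5a, whose counts are near 0 in some or all groups.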
